A study of Mus musculus with 18 samples.

Results

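RNA levels of 48 lysosomal genes were compared over 3 region types of polycystic mouse kidney. The genes encode cathepsins and legumain (13), glycosidases (11), sulfatases (4), proteins that break down or move lipids (7), 2 other soluble proteins, membrane proteins (8) and the transcription factors Tfeb, Tfe3 and Mitf (3). They were taken by name from the deposited table of counts per gene, and all 48 were present with at least 10 counts over the 18 libraries, a level that 20990 of the 32285 genes in the table reached. RNA was sequenced from tissue dissected out of frozen kidneys, either from cystic regions with high F4/80 signal, from cystic regions with low F4/80 signal or from non-cystic regions. F4/80 is a surface protein of macrophages, encoded by Adgre1.

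Each region type was represented by 6 libraries, 2 from each of 3 kidneys. All groups came from male C57BL/6 iKspCre-Pkd1del mice, which carry a kidney-specific Cre recombinase that tamoxifen switches on and loxP sites around exons of Pkd1, the main gene of dominant polycystic kidney disease. Every mouse had received 12.5 mg/kg tamoxifen by mouth on postnatal days 18 and 19 and was killed at a mild cystic stage judged by MRI. The non-cystic regions therefore carry the same treatment and the same Pkd1 knockout label as the cystic ones, and no kidney without the knockout was analysed here. The labelled age was 269 for kidneys 1 and 3 and 297 for kidney 2, without a unit. Kidneys are numbered in the labels, which leave unsaid whether each came from its own mouse, so a p-value here measures how evenly a difference repeats over the 3 kidneys.

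Lysosomes are acid compartments in which cathepsins cut proteins, glycosidases and sulfatases strip sugars and sulfate from glycans, and lipases and sphingolipid hydrolases break down lipids. Most of the soluble enzymes are tagged with mannose 6-phosphate in the Golgi and carried to the lysosome by receptors, while membrane proteins such as LAMP1 line its limiting membrane and the V-ATPase proton pump keeps it acid. Many of these genes are known targets of TFEB and its relatives, which bind an E-box motif near the gene start. In the kidney, proximal tubule cells use lysosomes to degrade filtered protein, and macrophages are rich in lysosomes that digest engulfed material and prepare antigens.

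Library totals lay between 5841975 and 8662288 counts in F4/80-high regions, 7186518 and 9188813 counts in F4/80-low regions and 5366651 and 9002054 counts in non-cystic regions. The tissue label was checked with marker genes summed per library as CPM, counts scaled to library size with edgeR's trimmed mean of M values. The 15 macrophage markers summed to 2404 to 6912 CPM in F4/80-high, 274.9 to 901.1 CPM in F4/80-low libraries and 124.3 to 207.5 CPM in non-cystic libraries, and Fcgr1 was at 0 in some non-cystic library. The 12 proximal tubule markers summed to 315.0 to 8845 CPM in F4/80-high, 22927 to 56588 CPM in F4/80-low libraries and 24172 to 50822 CPM in non-cystic libraries, and Slc22a8 was at 0 in some F4/80-high library. Of these lists, 14 of 15 macrophage markers were higher and 11 of 12 proximal tubule markers lower in F4/80-high than in non-cystic regions, and 6 of the 6 fibroblast and 7 of 8 lymphocyte markers tested were higher. Of the endothelial markers 1 of 6 and of the neutrophil markers tested 1 of 3 were higher. Collecting duct and intercalated cell markers had 3 of 8 lower. Of all genes tested, 19.7 percent were higher and 19.5 percent lower in this comparison. Adgre1 itself had a log2 fold change of 4.42 ± 0.31 (SE) there, which checks the dissection and is no finding, since regions were chosen on F4/80. That choice bears on the other macrophage markers too. These are bulk samples, so more or fewer cells of a type and more or less RNA per cell cannot be told apart in any value below, and the part of the markers in the members' differences was not tested. The exons of 13 members overlap a gene on the other strand (Ctsa, Ctsb, Ctsl, Ctsz, Hexa, Idua, Arsa, Arsb, Sgsh, Npc1, Ppt1, Grn and Lamp1) and those of Glb1 a gene on its own strand; the library kit does not mark strand, so reads of such pairs cannot be told apart.

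Against non-cystic regions, F4/80-high regions had more RNA of 7 of 13 cathepsin and legumain genes and of 3 of 8 lysosomal membrane protein genes, and less of several glycan- and lipid-degrading enzymes. Of the 48 members, 16 were higher and 8 lower (edgeR quasi-likelihood test with Benjamini-Hochberg adjusted p below 0.05 over all genes tested). Among all 16034 genes tested, 19.7 percent were called higher and 19.5 percent lower, 39.2 percent in all, so the members' 33.3 percent higher stood above that background and their 16.7 percent lower did not. The difference of these shares was not tested. Members were chosen with earlier results of these data known, so their share above background may reflect that choice. The median log2 fold change was 0.07 over the members and 0.04 over all genes. All 6 F4/80-high libraries lay above all 6 non-cystic ones for 11 members and below them for 7, against 14.3 and 13.0 percent of all genes. With libraries scaled by total counts alone, 27 members were higher and 5 lower, against 41.2 and 9.12 percent of all genes on that scale, and that scaling moved the median of all genes by 0.61.

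**Figure D1:**
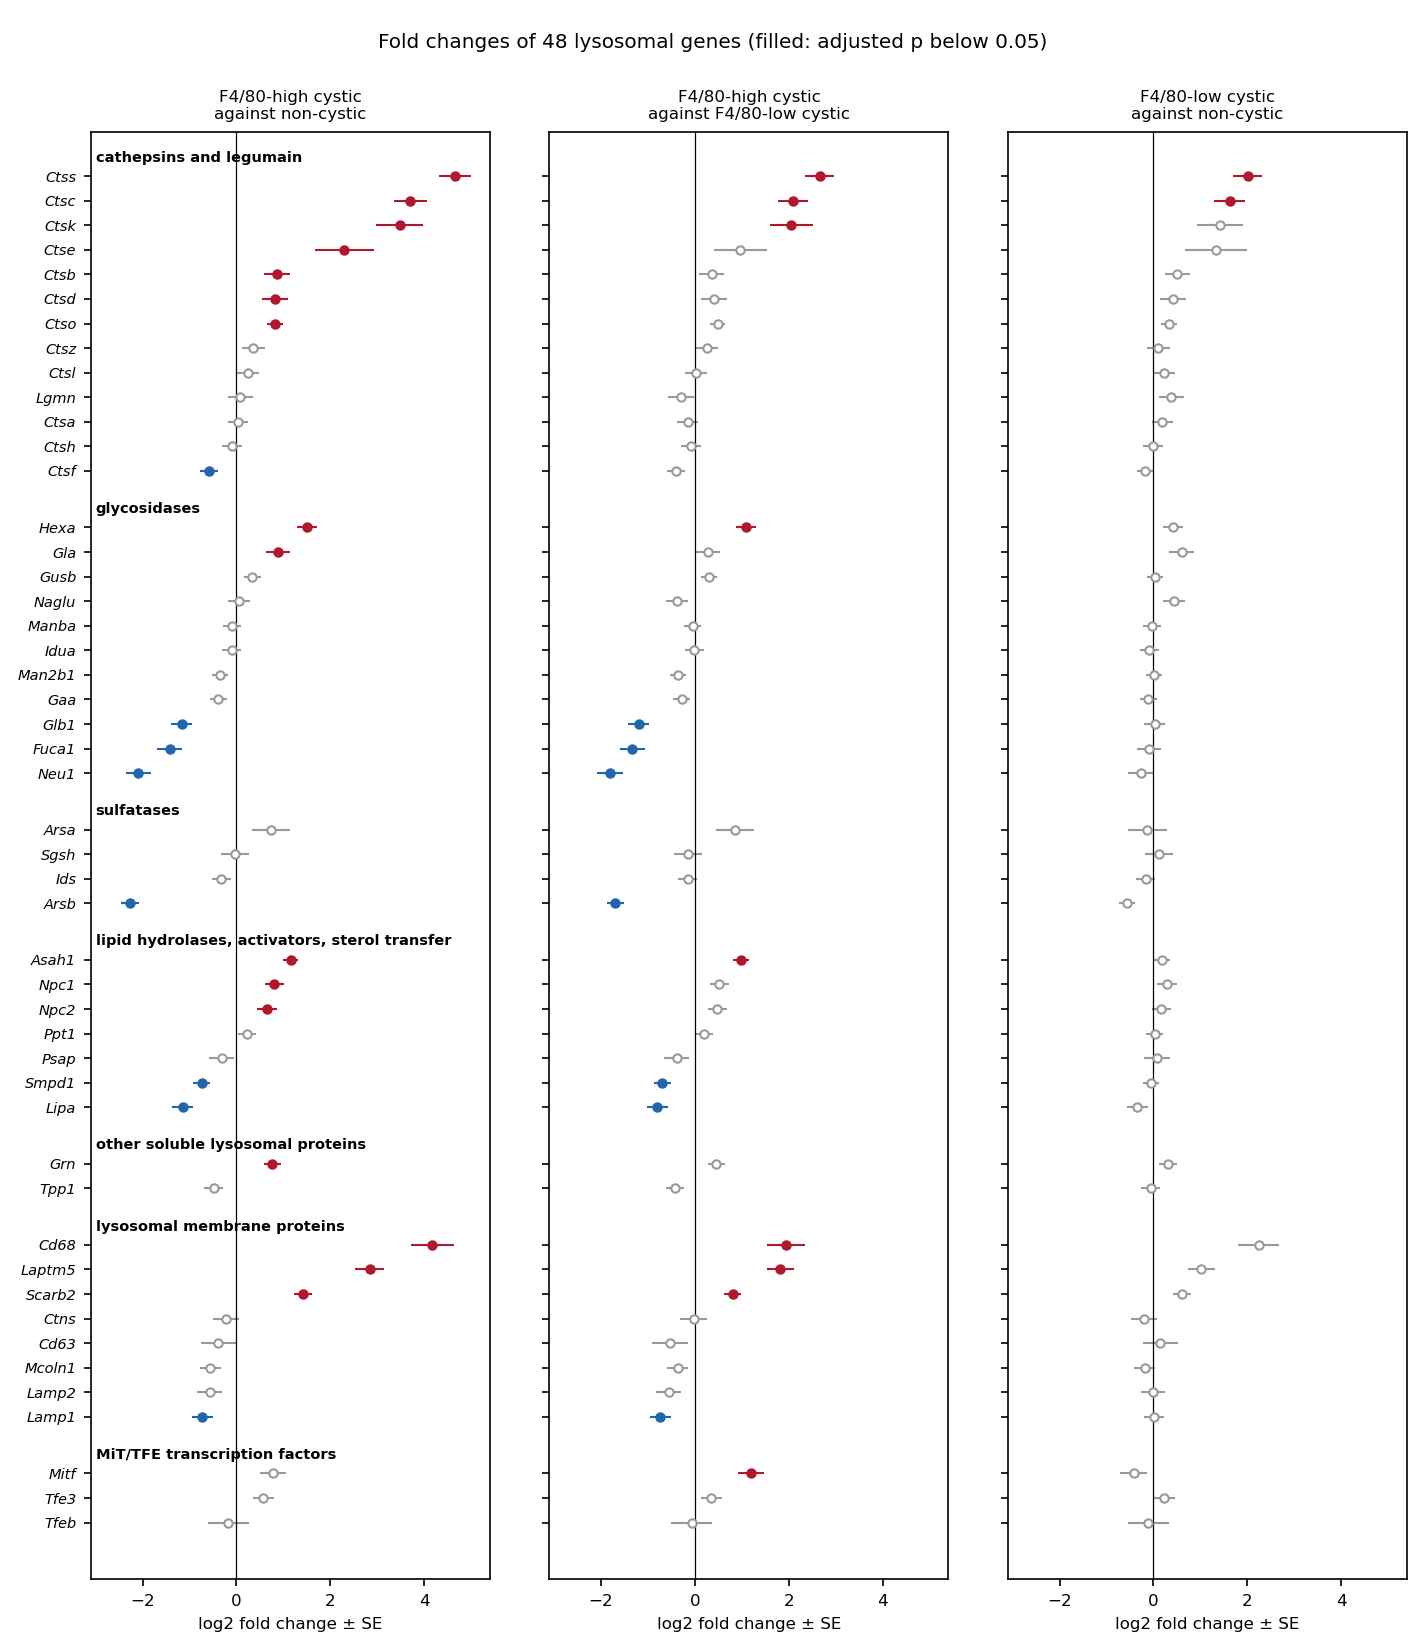
Log2 fold change of each of the 48 members by role, in 3 panels (F4/80-high over non-cystic, F4/80-high over F4/80-low, then F4/80-low over non-cystic); error bars are SE and filled points passed an adjusted p of 0.05. In F4/80-high against non-cystic regions 16 members lie above 0 as filled points, led by Ctss at 4.66, and 8 lie below it, with Arsb lowest at -2.26.

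The largest increase was that of a cathepsin. Cathepsin S (Ctss, ENSMUSG00000038642, chromosome 3, 95526786 to 95556403, GRCm38) is a cysteine protease that trims the invariant chain of MHC class II molecules. It ran from 425 to 1105 CPM (median 557) over the F4/80-high libraries, from 51.2 to 172 CPM (median 94.7) over the F4/80-low ones and from 12.7 to 41.1 CPM (median 22.3) over the non-cystic ones. The 3 groups did not overlap, and within F4/80-high regions both libraries of kidney 3 were highest (1035 and 1105 CPM), as were their macrophage marker sums (5774 and 6912 CPM). The log2 fold change against non-cystic regions was 4.66 ± 0.34 (adjusted p = 2.69e-05), a fold of 25.2.

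Cathepsin C (Ctsc, chromosome 7, 88278085 to 88310888) activates the serine proteases of immune cell granules. Its levels were 155 to 336 CPM (median 199) in F4/80-high, 21.4 to 132 CPM (median 39.9) in F4/80-low and 8.87 to 24.7 CPM (median 15.7) in non-cystic libraries. The F4/80-high libraries stood clear of both other groups, while F4/80-low and non-cystic libraries overlapped. The log2 fold change was 3.71 ± 0.35 against non-cystic regions (adjusted p = 0.000124).

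Cathepsin K (Ctsk, chromosome 3, 95499256 to 95509362), a collagen-degrading protease best known from osteoclasts, lies next to Ctss on the same strand, with 17423 bases between them. It had 22.9 to 49.9 CPM (median 29.4) in F4/80-high, 4.23 to 11.9 CPM (median 7.47) in F4/80-low and 1.34 to 5.41 CPM (median 2.34) in non-cystic libraries. No F4/80-high library came near the other groups. The log2 fold change was 3.48 ± 0.50 (adjusted p = 0.00131).

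The aspartic protease gene Ctse also rose, by 2.30 ± 0.63 on the log2 scale (adjusted p = 0.0166), at a very low level. Its highest library reached 2.02 CPM in F4/80-high, 1.06 CPM in F4/80-low tissue and 0.355 CPM in non-cystic tissue, and 1 F4/80-low library had 0 counts, which allows up to 0.438 CPM at 3 counts. Smaller increases were found for the broad-acting cysteine protease gene Ctsb (0.86 ± 0.27, adjusted p = 0.0286), the main aspartic protease gene Ctsd (0.82 ± 0.28, adjusted p = 0.0418) and the cysteine protease gene Ctso (0.82 ± 0.17, adjusted p = 0.00413). Between F4/80-high and non-cystic regions, Ctsb and Ctsd libraries overlapped and those of Ctso did not. The F4/80-low libraries of Ctso overlapped both other groups. The Ctse call was lost without the F4/80-high library of kidney 2, replicate 2 (adjusted p = 0.084). The Ctsb call was lost without F4/80-high kidney 1 replicate 2 (0.153) or F4/80-low kidney 2 replicate 1 (0.0559). The Ctsd call was lost without any of F4/80-high kidney 1 replicate 2 (0.304) and kidney 3 replicate 2 (0.0599), F4/80-low kidney 2 replicate 1 (0.0567) and kidney 3 replicate 1 (0.0768), and non-cystic kidney 2 replicate 1 (0.0569). Leaving out a whole kidney ended calls as well. Those of Ctse and Ctsd were lost without kidney 1, kidney 2 or kidney 3, and that of Ctsb without kidney 1 or kidney 2. Ctso lost its call without kidney 1 (0.0565).

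Cathepsin F (Ctsf), a cysteine protease, was the single cathepsin called lower. It had 18.9 to 38.5 CPM (median 27.8) in F4/80-high, 20.3 to 49.5 CPM (median 34.3) in F4/80-low and 34.5 to 44.2 CPM (median 41.5) in non-cystic libraries. The groups overlapped, and its log2 fold change of -0.58 ± 0.19 (adjusted p = 0.033) became 0.02 with total counts (adjusted p = 0.943). Its call was also lost without F4/80-high kidney 1 replicate 1 (adjusted p = 0.062) or kidney 3 replicate 2 (0.0513), or F4/80-low kidney 2 replicate 1 (0.0993). Leaving out kidney 1, kidney 2 or kidney 3 ended it as well. The 5 remaining genes of the list passed no threshold here: Ctsz, a carboxypeptidase (0.36 ± 0.24), Ctsl, a cysteine protease (0.25 ± 0.23), Lgmn, the asparagine-specific protease that processes cathepsins (0.08 ± 0.27), Ctsa, a carboxypeptidase that protects 2 glycosidases (0.04 ± 0.22), and Ctsh, an aminopeptidase (-0.09 ± 0.21). With total counts these 5 genes were all called higher (adjusted p between 0.0031 for Ctsz and 0.0285 for Ctsh), when 41.2 percent of all genes were. Cathepsins and legumain together had 7 members higher and 1 lower of 13, with a median of 0.82, against 19.7 and 19.5 percent of all genes.

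**Figure D2:**
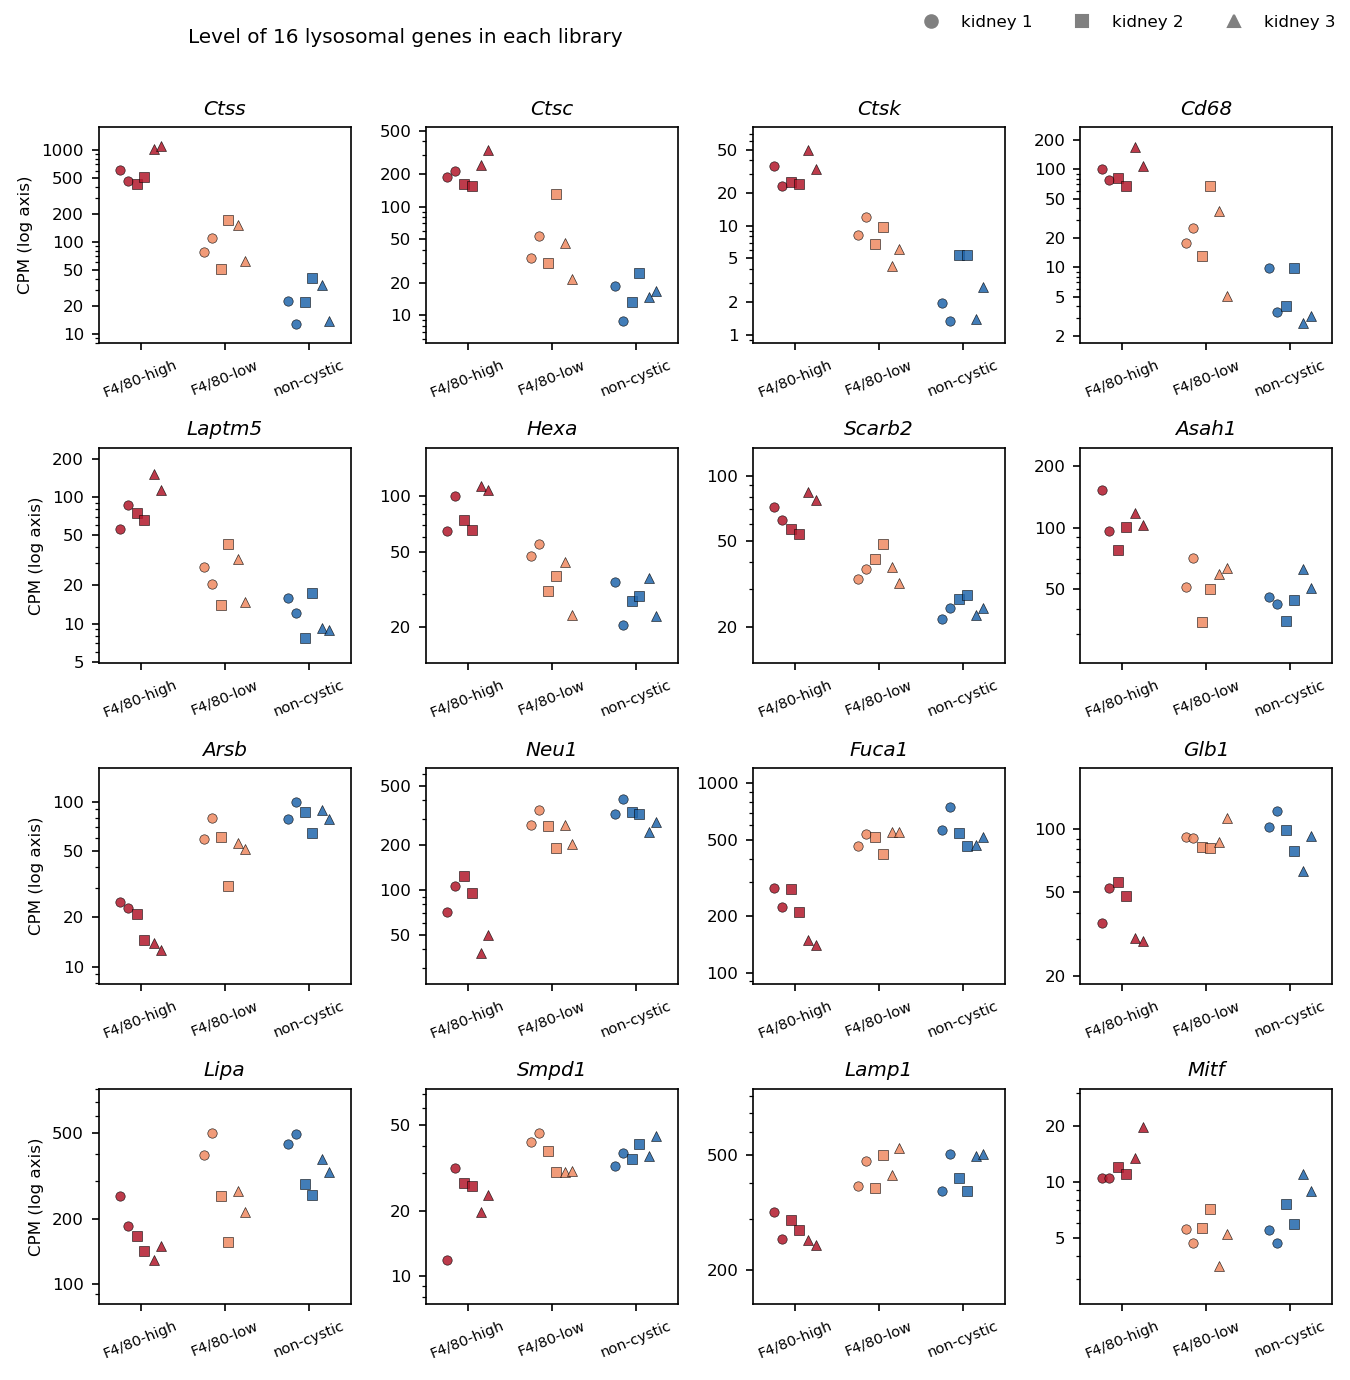
CPM of 16 members in each of the 18 libraries on logarithmic axes, 1 panel per gene, with F4/80-high, F4/80-low and non-cystic libraries from left to right and a symbol for each kidney. Ctss and Scarb2 separate all 3 region types, and Arsb, Neu1, Fuca1 and Glb1 are lowest in F4/80-high libraries, with F4/80-low and non-cystic libraries overlapping.

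The make-up of the cathepsins was described per length, as CPM per kilobase of annotated exon, which allows levels of different genes to be set side by side. Ctss took 32.5 ± 8.09 percent (SD, n = 3 kidneys) of the summed per-length level of the 12 cathepsins in F4/80-high, 8.64 ± 0.789 percent in F4/80-low and 2.89 ± 1.13 percent in non-cystic regions. Its kidneys ranged from 25.0 to 41.0 percent in F4/80-high, 7.74 to 9.18 percent in F4/80-low and 1.65 to 3.87 percent in non-cystic regions, without overlap. Ctsz, Ctsd, Ctsb and Ctsl made up most of the rest. Ctsz took 17.0 percent in F4/80-high, 23.4 percent in F4/80-low and 27.9 percent in non-cystic regions, and Ctsl took 7.16, 11.5 and 12.8 percent in the same order. These are parts of a common sum, so a larger share of Ctss leaves less for the others. Neither Ctsz nor Ctsl RNA was called lower in F4/80-high regions. By this per-length level Ctss ranked 2 of 48 members in F4/80-high, 11 in F4/80-low and 20 in non-cystic regions, while Cd63 ranked 1 in each. With the longest principal transcript as the length, chosen after the values were seen, the share of Ctss was 27.6, 6.92 and 2.26 percent in that order.

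**Figure D3:**
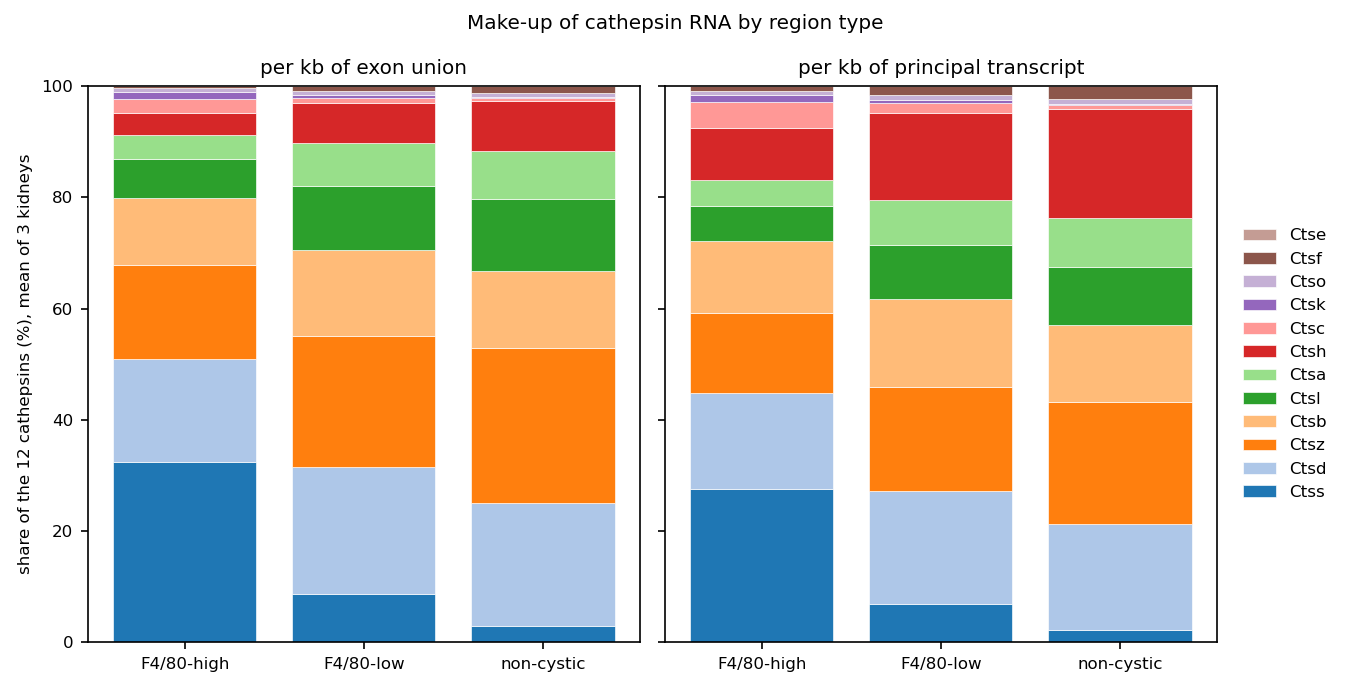
Share of each cathepsin in the summed per-length level (CPM per kilobase) of the 12 cathepsins, in percent, as the mean of 3 kidneys in F4/80-high, F4/80-low and non-cystic regions; the left panel uses all annotated exons as the length, the right panel the longest principal transcript. In the left panel Ctss holds 32.5, 8.64 and 2.89 percent in that order, and Ctsz 17.0, 23.4 and 27.9 percent. A smaller share is not a lower level of that gene, since all shares are parts of a common sum.

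Of the 8 membrane protein genes, Cd68, Laptm5 and Scarb2 rose and Lamp1 fell. CD68 (Cd68, chromosome 11, 69664213 to 69666153), also called macrosialin, is a heavily glycosylated lysosomal protein of macrophages. It ran from 66.6 to 167 CPM (median 90.2) in F4/80-high, 5.08 to 67.4 CPM (median 21.3) in F4/80-low and 2.68 to 9.83 CPM (median 3.74) in non-cystic libraries. F4/80-high and non-cystic libraries were far apart, and the F4/80-low library of kidney 2 labelled replicate 2 reached the lowest F4/80-high value. The log2 fold change was 4.18 ± 0.46 (adjusted p = 0.000575).

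LAPTM5 (Laptm5, chromosome 4, 130913125 to 130936141), a lysosomal membrane protein of leukocytes, had 55.7 to 153 CPM (median 81.0) in F4/80-high, 14.0 to 42.6 CPM (median 24.3) in F4/80-low and 7.76 to 17.3 CPM (median 10.6) in non-cystic libraries. The F4/80-high libraries again overlapped neither of the other groups, and the log2 fold change was 2.84 ± 0.31 (adjusted p = 0.000265). Scarb2 encodes LIMP-2, the receptor that carries glucocerebrosidase to the lysosome. Its libraries held 53.8 to 84.0 CPM (median 67.2) in F4/80-high, 32.0 to 48.2 CPM (median 37.4) in F4/80-low and 21.7 to 28.1 CPM (median 24.5) in non-cystic regions, with no overlap between any of the groups. Its log2 fold change was 1.42 ± 0.19 (adjusted p = 0.00061).

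LAMP1 (Lamp1), an abundant glycoprotein of the lysosomal membrane, was lower. Its range was 244 to 317 CPM (median 266) in F4/80-high, 383 to 529 CPM (median 451) in F4/80-low and 374 to 505 CPM (median 456) in non-cystic libraries. The F4/80-high libraries lay below all others, with a log2 fold change of -0.73 ± 0.22 against non-cystic regions (adjusted p = 0.0258), which was -0.13 with total counts (adjusted p = 0.549). Without F4/80-high kidney 1 replicate 2 the adjusted p was 0.0623, and the call was also lost without kidney 1 or kidney 2. The other 4 membrane members did not pass: the LAMP1 relative Lamp2 (-0.57 ± 0.26, adjusted p = 0.109), the calcium and cation channel gene Mcoln1 (-0.55 ± 0.23, adjusted p = 0.0819), the tetraspanin gene Cd63 (-0.38 ± 0.37, adjusted p = 0.452) and the cystine exporter gene Ctns (-0.23 ± 0.28, adjusted p = 0.546). The 8 membrane members had a median of -0.30, or 0.29 with total counts, against 0.04 and 0.65 over all genes. Of all genes, 19.7 percent were called higher and 19.5 percent lower.

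Glycosidases and sulfatases held the largest decreases. Arylsulfatase B (Arsb, ENSMUSG00000042082, chromosome 13, 93771630 to 93943016) removes sulfate from dermatan and chondroitin sulfate. Its libraries held 12.6 to 24.6 CPM (median 17.7) in F4/80-high, 30.8 to 79.7 CPM (median 58.0) in F4/80-low and 64.3 to 100.03 CPM (median 82.7) in non-cystic regions. The F4/80-high libraries lay below every other library, and the 2 of kidney 3 were lowest. The log2 fold change against non-cystic regions was -2.26 ± 0.19 (adjusted p = 4.66e-05).

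Neuraminidase 1 (Neu1, chromosome 17, 34931253 to 34935953), the lysosomal sialidase, had 37.6 to 124 CPM (median 83.6) in F4/80-high, 191 to 343 CPM (median 271) in F4/80-low and 244 to 410 CPM (median 323) in non-cystic libraries. The fucosidase gene Fuca1 had 140 to 279 CPM (median 216) in F4/80-high, 424 to 551 CPM (median 529) in F4/80-low and 464 to 752 CPM (median 535) in non-cystic libraries. The galactosidase gene Glb1 had 29.3 to 56.2 CPM (median 41.8) in F4/80-high, 80.9 to 114 CPM (median 88.8) in F4/80-low and 63.0 to 122 CPM (median 95.6) in non-cystic libraries. All 3 enzymes were low in F4/80-high libraries without overlap, while their F4/80-low and non-cystic libraries overlapped. Against non-cystic regions their log2 fold changes were -2.09 ± 0.27 for Neu1 (adjusted p = 0.000469), -1.43 ± 0.27 for Fuca1 (adjusted p = 0.00265) and -1.16 ± 0.22 for Glb1 (adjusted p = 0.00308). The Glb1 call was lost without kidney 1 (0.0504). NEU1 and GLB1 form a complex with the CTSA protein, whose RNA differed by 0.04 ± 0.22 (adjusted p = 0.914).

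Hexa, the alpha subunit of the hexosaminidase that degrades the ganglioside GM2, went the other way. It had 64.7 to 112 CPM (median 86.7) in F4/80-high, 23.2 to 55.2 CPM (median 41.2) in F4/80-low and 20.6 to 36.7 CPM (median 28.4) in non-cystic libraries. The F4/80-high libraries lay above all others, and the log2 fold change was 1.50 ± 0.21 (adjusted p = 0.000694). Gla, the galactosidase deficient in Fabry disease, rose by 0.89 ± 0.26 (adjusted p = 0.023) at 5.16 to 12.9 CPM in F4/80-high, 3.42 to 9.03 CPM in F4/80-low libraries and 2.04 to 6.52 CPM in non-cystic libraries, which overlapped. That call was lost without F4/80-high kidney 3 replicate 1 (adjusted p = 0.0563) or F4/80-low kidney 1 replicate 1 (0.0698), and also without kidney 1 or kidney 2.

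The 6 other glycosidase genes did not pass: Gusb (glucuronidase), Naglu (heparan sulfate), Man2b1 and Manba (mannosidases), Idua (iduronidase) and Gaa (glycogen). Their log2 fold changes lay between -0.39 for Gaa and 0.34 for Gusb. Of the sulfatases, Arsa, which acts on sulfatide, had 3.21 to 6.13 CPM in F4/80-high, 0.584 to 3.85 CPM in F4/80-low libraries and 0.836 to 4.20 CPM in non-cystic libraries and did not pass (0.73 ± 0.41, adjusted p = 0.183). The heparan sulfate enzyme genes Ids (-0.32 ± 0.20) and Sgsh (-0.02 ± 0.29) did not pass either. In all, 2 glycosidases were higher and 3 lower of 11 (18.2 and 27.3 percent), and 1 of 4 sulfatases was lower (25 percent). Of all genes, 19.7 percent were higher and 19.5 percent lower, and the difference of these shares was not tested. The glycosidase median was -0.10, or 0.51 with total counts, against 0.04 and 0.65 over all genes.

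Lipid-handling members also split. Acid ceramidase (Asah1) had 77.6 to 153 CPM (median 101) in F4/80-high, 34.6 to 70.6 CPM (median 55.3) in F4/80-low and 34.8 to 62.7 CPM (median 44.9) in non-cystic libraries. Lysosomal acid lipase (Lipa), which frees cholesterol from its esters, had 130 to 255 CPM (median 159) in F4/80-high, 158 to 504 CPM (median 264) in F4/80-low and 259 to 499 CPM (median 355) in non-cystic libraries. Asah1 was high in F4/80-high libraries without overlap, and Lipa was low there, clear of the non-cystic libraries only. The log2 fold changes were 1.15 ± 0.17 for Asah1 (adjusted p = 0.000787) and -1.14 ± 0.22 for Lipa (adjusted p = 0.00316).

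The sphingomyelinase gene Smpd1 had 11.8 to 31.8 CPM (median 24.9) in F4/80-high, 30.5 to 46.4 CPM (median 34.4) in F4/80-low and 32.5 to 44.5 CPM (median 36.6) in non-cystic libraries. Its log2 fold change was -0.74 ± 0.18 (adjusted p = 0.00912), which was -0.14 with total counts (adjusted p = 0.633). The cholesterol exporters rose by 0.80 ± 0.20 for the membrane protein gene Npc1 (adjusted p = 0.011) and by 0.65 ± 0.21 for its soluble partner gene Npc2 (adjusted p = 0.0316). The Npc2 call was lost in 5 of 32 alternatives, with adjusted p between 0.0597 and 0.218, among them the fits without kidney 1 (0.16) or kidney 2, and the Npc1 call in 3, among them without kidney 1 (0.0806). Psap, the precursor of the saposins that present lipids to enzymes (-0.32 ± 0.27), and the palmitoyl thioesterase gene Ppt1 (0.22 ± 0.19) did not pass.

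Grn, which encodes progranulin, the precursor of lysosomal granulins, had 116 to 182 CPM (median 153) in F4/80-high, 77.9 to 143 CPM (median 111) in F4/80-low and 76.5 to 93.3 CPM (median 88.2) in non-cystic libraries. F4/80-high and non-cystic libraries were separate, with a log2 fold change of 0.76 ± 0.18 (adjusted p = 0.00907), a call lost without kidney 1 (0.0637) or kidney 2 (0.0577). The tripeptidyl peptidase gene Tpp1 had 127 to 206 CPM (median 163) in F4/80-high, 180 to 283 CPM (median 207) in F4/80-low and 181 to 264 CPM (median 227) in non-cystic libraries, which overlapped, and did not pass (-0.49 ± 0.20, adjusted p = 0.0792).

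Sums over the roles are given without a test. Cathepsins and legumain summed to 4878 ± 637 CPM (SD, n = 3) in F4/80-high, 3820 ± 192 CPM in F4/80-low regions and 3030 ± 404 CPM in non-cystic regions. Glycosidases summed to 591 ± 62.7 CPM in F4/80-high, 1105 ± 74.5 CPM in F4/80-low regions and 1193 ± 197 CPM in non-cystic regions. Sulfatases summed to 40.7 ± 4.79, 80.8 ± 15.2 and 109 ± 11.2 CPM in that order. Fuca1 and Neu1 hold a large part of the glycosidase sum, and Arsb of the sulfatase sum. Besides Fuca1, Neu1 and Glb1 no glycosidase, and besides Arsb no sulfatase, was called lower in F4/80-high against non-cystic regions. These 2 sums therefore do not describe all genes of their roles. The membrane proteins (4328 ± 937, 5905 ± 677 and 5537 ± 1179 CPM), the lipid-handling members (1623 ± 90.1, 1803 ± 172 and 1780 ± 222 CPM) and the other soluble proteins (309 ± 4.90, 326 ± 36.6 and 314 ± 32.5 CPM) overlapped between region types within their SDs. All 48 members summed to 11804 ± 309, 13063 ± 704 and 11988 ± 2026 CPM in that order, which differ by less than the SD between non-cystic kidneys. Cd63 holds a large part of this sum. Without it the 47 other members summed to 8573 ± 622, 8534 ± 483 and 7792 ± 944 CPM, another order of the region types.

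In F4/80-low against non-cystic regions few members differed. Ctss and Ctsc were higher, 2 of 48 or 4.17 percent, against a background of 1.51 percent of all genes called higher and 1.53 percent called in either direction. The DESeq2 Wald test called 4 members higher, with 3.75 percent of all genes called higher by it. No member was called lower by edgeR, against 0.0249 percent of all genes. At an unadjusted p below 0.05, 7 members (14.6 percent) were higher and 1 (2.08 percent) was lower by edgeR, against 9.35 and 2.35 percent of all genes. DESeq2 also called 0 members lower. The libraries of Ctss and Scarb2 did not overlap, 2 of 48 members, against 1.78 percent of all genes on the higher side, and 0 lay wholly lower, against 0.418 percent. The median log2 fold change of the members was 0.09, against 0.00257 over all genes.

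Ctss was higher by 2.00 ± 0.30 on the log2 scale (adjusted p = 0.0148) and by 4.66 ± 0.34 in F4/80-high regions. These comparisons share the non-cystic libraries, so the values are set side by side only. The Ctss call in F4/80-low regions was lost without kidney 1. Ctsc was higher by 1.62 ± 0.32 (adjusted p = 0.0459), a call lost in 18 of 32 alternative settings, among them without kidney 1 or kidney 2. Single libraries whose removal ended it were F4/80-high kidney 1 replicates 1 (adjusted p = 0.056) and 2 (0.052) and kidney 3 replicate 1 (0.0707), F4/80-low kidney 1 replicate 2 (0.0739) and kidney 2 replicate 1 (0.111), non-cystic kidney 1 replicates 1 (0.058) and 2 (0.0743), kidney 2 replicate 1 (0.0894) and kidney 3 replicate 1 (0.0518), and 2 uneven F4/80-low libraries described next. Cd68 had the largest value of the members, 2.24 ± 0.43, and did not pass (adjusted p = 0.0587), with its libraries overlapping. Scarb2 (0.62 ± 0.19, adjusted p = 0.208), Laptm5 (1.02 ± 0.29, adjusted p = 0.168) and Ctsk (1.42 ± 0.49, adjusted p = 0.279) did not pass either, although each was higher in 3 of 3 kidneys.

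F4/80-low libraries were uneven. In kidney 2, the library labelled replicate 2 had 132 CPM of Ctsc, 67.4 CPM of Cd68 and 30.8 CPM of Arsb, and the one labelled replicate 1 had 30.0, 13.1 and 61.0 CPM of the same genes. Their macrophage markers summed to 761 CPM in the replicate 2 library and 327 CPM in the replicate 1 library. Fibroblast markers summed to 560 and 238 CPM in the same order. In kidney 3 the replicate 1 library had 154 CPM of Ctss and a macrophage sum of 901 CPM, and the replicate 2 library had 62.3 CPM of Ctss and a sum of 275 CPM. The fibroblast sums of these libraries were 402 CPM for replicate 1 and 193 CPM for replicate 2. Without the replicate 2 library of kidney 2, Ctss was higher by 1.66 (adjusted p = 0.113) and Ctsc by 1.12 (adjusted p = 0.136). Leaving out the replicate 1 library of kidney 3 gave 1.80 for Ctss (adjusted p = 0.0978) and 1.47 for Ctsc (adjusted p = 0.244). Against non-cystic tissue, 9 of 15 macrophage and 4 of 6 fibroblast markers tested were higher in the F4/80-low regions, and 0 of 12 proximal tubule markers were lower. Of all genes, 1.51 percent were higher and 0.0249 percent lower there.

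Between the 2 kinds of cystic region, 9 members were higher and 7 lower in F4/80-high than in F4/80-low regions. Over all genes tested, 10.3 percent were called higher and 14.0 percent lower, 24.3 percent in all, so the members' 18.8 percent higher stood above the background and their 14.6 percent lower stood near it. The limit set by how members were chosen holds here too. Libraries did not overlap for 9 members on the higher and 5 on the lower side, against 7.35 and 9.63 percent of all genes. With total counts as the scale 19 members were higher and 4 lower, against 26.3 and 6.99 percent of all genes.

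The higher members were Ctss (2.65 ± 0.31, adjusted p = 0.00123), Ctsc (2.09 ± 0.32, adjusted p = 0.00323), Ctsk (2.06 ± 0.46, adjusted p = 0.0156), Cd68 (1.94 ± 0.41, adjusted p = 0.0149), Laptm5 (1.82 ± 0.29, adjusted p = 0.00366), Mitf, Hexa (1.08 ± 0.21, adjusted p = 0.00689), Asah1 (0.97 ± 0.17, adjusted p = 0.00405) and Scarb2 (0.80 ± 0.19, adjusted p = 0.0156). The lower ones were Neu1 (-1.81 ± 0.27, adjusted p = 0.00253), Arsb (-1.70 ± 0.18, adjusted p = 0.000921), Fuca1 (-1.33 ± 0.27, adjusted p = 0.00756), Glb1 (-1.19 ± 0.22, adjusted p = 0.00601), Lipa (-0.80 ± 0.22, adjusted p = 0.0269), Lamp1 (-0.74 ± 0.22, adjusted p = 0.0369) and Smpd1 (-0.69 ± 0.18, adjusted p = 0.0215). These 7 and 8 of the 9 higher members were also called in F4/80-high against non-cystic regions, a comparison that shares the F4/80-high libraries. Smpd1, Lipa and Lamp1 lost their calls with total counts, at -0.22, -0.33 and -0.26. Single libraries also ended calls. Cd68 was lost without F4/80-low kidney 2 replicate 1 (adjusted p = 0.083). Smpd1 was lost without F4/80-high kidney 1 replicate 1 (0.0578) or F4/80-low kidney 2 replicate 1 (0.0534). Lipa was lost without F4/80-high kidney 1 or kidney 2 replicate 2 (0.0618 and 0.0528) or F4/80-low kidney 2 replicate 1 (0.0998). Lamp1 was lost without F4/80-high kidney 1 or kidney 2 replicate 2 (0.0832 and 0.0602) or F4/80-low kidney 1 replicate 2 (0.0585). Leaving out kidney 1 ended the calls of Ctsc, Ctsk, Cd68, Scarb2, Mitf, Glb1, Fuca1, Smpd1, Lipa and Lamp1. Without kidney 2 those of Asah1, Smpd1, Lipa and Lamp1 were lost, and without kidney 3 those of Scarb2 and Lamp1. In the same comparison 14 of 15 macrophage and 6 of 6 fibroblast markers tested were higher, and 10 of 12 proximal tubule markers were lower.

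The levels thus took a few forms over the region types. Only Ctss and Ctsc were called higher in all 3 comparisons, and 23 members were called in none. The 7 members called lower in F4/80-high against both other region types were called in no direction in F4/80-low against non-cystic regions, where their values lay between -0.56 for Arsb and 0.03 for Glb1. Another 8 members, Ctsb, Ctsd, Ctse, Ctso, Gla, Npc1, Npc2 and Grn, were called higher against non-cystic regions alone, with each F4/80-low mean between the other means.

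The transcription factors of the family that controls lysosomal genes were measured at low levels. Mitf had 10.4 to 19.7 CPM (median 11.5) in F4/80-high, 3.50 to 7.12 CPM (median 5.41) in F4/80-low and 4.68 to 11.0 CPM (median 6.74) in non-cystic libraries. Its F4/80-high libraries lay above all F4/80-low ones (1.19 ± 0.28, adjusted p = 0.015) and overlapped the non-cystic ones (0.77 ± 0.28, adjusted p = 0.0505). That last value passed in 15 of 32 alternative settings. Tfe3 had 12.9 to 26.3 CPM (median 16.7) in F4/80-high, 10.5 to 18.1 CPM (median 14.1) in F4/80-low and 5.45 to 14.6 CPM (median 12.8) in non-cystic libraries, and Tfeb had 1.42 to 6.61 CPM (median 4.90), 2.54 to 6.91 CPM (median 4.95) and 3.38 to 7.01 CPM (median 4.47) in the same order. Libraries of both genes overlapped throughout. Against non-cystic regions the F4/80-high values were 0.57 ± 0.23 for Tfe3 (adjusted p = 0.0714) and -0.18 ± 0.44 for Tfeb (adjusted p = 0.778), and Tfeb turned to 0.46 with total counts (adjusted p = 0.449).

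Promoters were read from RefSeq on GRCm38.p6, from 250 bases before to 50 bases after each gene start, for 43 of the 48 members, with Asah1, Ctsb, Ctse, Ctsh and Npc1 not matched. The E-box CACGTG, the core of the element bound by TFEB and its relatives, was found in 13 of 43 members (30.2 percent), against 8.09 percent of 27025 genes with such a window. CACGTG reads alike on both strands. It was present in 2 of 12 members called higher in F4/80-high against non-cystic regions, in 3 of 8 called lower and in 8 of 23 not called. The longer form TCACGTG, which contains it, was searched on both strands and found in 11 of 43 members, against 4.29 percent of genes. The windows of Lamp1 and Ctsd are shown as 1 member that was lower and 1 that was higher, each with several E-boxes in capitals.
Lamp1 (chr8:13158911-13159210, plus strand): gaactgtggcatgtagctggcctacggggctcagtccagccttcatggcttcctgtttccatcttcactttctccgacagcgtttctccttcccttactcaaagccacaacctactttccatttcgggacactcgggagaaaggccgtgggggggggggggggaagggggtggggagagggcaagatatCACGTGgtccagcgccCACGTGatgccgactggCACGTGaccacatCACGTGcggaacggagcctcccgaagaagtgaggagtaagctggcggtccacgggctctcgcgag
Ctsd (chr7:142387778-142388077, minus strand): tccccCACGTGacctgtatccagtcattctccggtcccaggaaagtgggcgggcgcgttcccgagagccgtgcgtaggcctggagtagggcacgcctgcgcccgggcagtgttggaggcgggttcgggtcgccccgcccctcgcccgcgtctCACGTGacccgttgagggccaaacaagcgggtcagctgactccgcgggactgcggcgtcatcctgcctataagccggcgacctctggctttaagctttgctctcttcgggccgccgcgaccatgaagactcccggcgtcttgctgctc
In Lamp1 the E-boxes start at -61, -45, -28 and -15 from the RefSeq gene start, and in Ctsd at -245 and -98. For Ctsd this start differs from that of the GENCODE gene (142388038, minus strand). Its E-box at -98, but not that at -245, lies inside the GENCODE gene.

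The letters GAGGAAG, read by the macrophage factor PU.1, were added to the search after the values had been seen. On either strand they were found in 9 of 43 members (20.9 percent), against 15.4 percent of genes, and in 5 of 12 members higher in F4/80-high against non-cystic regions, 1 of 8 lower and 3 of 23 not called. The 4 promoters shown hold these letters and belong to members that rose by more than 2 on the log2 scale, and capitals mark the letters or their reverse complement CTTCCTC. Cd68, which also rose by more than 2, had no match in its window, and Ctse had no window. None of the 4 windows held CACGTG.
Ctss (chr3:95526536-95526835, plus strand): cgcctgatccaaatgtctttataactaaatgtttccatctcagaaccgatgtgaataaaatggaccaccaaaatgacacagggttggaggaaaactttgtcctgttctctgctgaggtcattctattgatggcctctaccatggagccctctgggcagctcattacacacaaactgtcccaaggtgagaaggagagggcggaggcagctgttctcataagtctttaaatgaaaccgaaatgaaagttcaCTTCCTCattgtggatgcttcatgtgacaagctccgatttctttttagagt
Ctsk (chr3:95498960-95499259, plus strand): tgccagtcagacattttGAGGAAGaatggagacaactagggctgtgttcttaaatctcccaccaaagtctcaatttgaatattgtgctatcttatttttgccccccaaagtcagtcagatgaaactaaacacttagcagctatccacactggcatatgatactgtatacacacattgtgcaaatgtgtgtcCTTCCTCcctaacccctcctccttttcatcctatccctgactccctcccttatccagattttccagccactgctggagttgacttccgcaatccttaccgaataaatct
Ctsc (chr7:88277835-88278134, plus strand): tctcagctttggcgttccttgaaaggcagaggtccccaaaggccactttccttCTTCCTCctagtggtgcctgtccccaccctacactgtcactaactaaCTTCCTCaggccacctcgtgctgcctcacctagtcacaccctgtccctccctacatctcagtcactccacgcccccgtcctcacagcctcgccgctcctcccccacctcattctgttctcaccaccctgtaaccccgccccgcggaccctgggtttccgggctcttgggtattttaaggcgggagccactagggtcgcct
Laptm5 (chr4:130913066-130913365, plus strand): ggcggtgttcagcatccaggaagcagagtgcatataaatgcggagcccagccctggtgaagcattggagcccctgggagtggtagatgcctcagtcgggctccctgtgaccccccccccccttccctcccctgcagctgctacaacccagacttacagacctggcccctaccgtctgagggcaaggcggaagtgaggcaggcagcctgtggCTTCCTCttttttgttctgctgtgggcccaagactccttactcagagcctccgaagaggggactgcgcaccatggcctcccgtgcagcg
The capitals start at -1 in Ctss, at -233 and -59 in Ctsk, at -197 and -150 in Ctsc and at -39 in Laptm5. These positions count from the RefSeq start used for the window. For Ctsk and Laptm5 it differs from the start in the gene coordinates given above, and the Laptm5 match lies inside those coordinates. A match in a window describes its letters and is no evidence of binding.

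Other genes of the pathway were counted in F4/80-high against non-cystic regions from lists that hold no member. The background for all these lists is 19.7 percent of all genes higher and 19.5 percent lower. With total counts it is 41.2 and 9.12 percent. Of 23 further hydrolase genes 3 were higher and 7 lower. The smallest p-values were those of Naaa, an amidase of fatty acid ethanolamides (2.24 ± 0.21, adjusted p = 0.0001), the sulfatase gene Galns (-1.37 ± 0.18, adjusted p = 0.000508), the acid phosphatase gene Acp5 (-1.36 ± 0.19, adjusted p = 0.000602) and the galactosylceramidase gene Galc (-1.15 ± 0.17, adjusted p = 0.000953). The median of the 23 hydrolase genes was -0.13, or 0.49 with total counts, against 0.04 and 0.65 over all genes. Of 21 further membrane protein genes tested 6 were higher and 4 lower, with 13 higher and 0 lower with total counts. Among them were Gpnmb, a melanosome and macrophage glycoprotein (6.18 ± 0.82, adjusted p = 0.000703), Slc11a1, a metal transporter of phagosomes (2.87 ± 0.44, adjusted p = 0.00106), and Litaf, an endosomal membrane protein (2.47 ± 0.24, adjusted p = 0.00011). Gpnmb was uneven, with 0.875 to 55.1 CPM in F4/80-high libraries, 0 to 1.23 CPM in F4/80-low libraries and 0 to 0.700 CPM in non-cystic ones.

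The proton pump moved with the lower members. Of 23 V-ATPase subunit genes 0 were higher and 12 lower in F4/80-high than in non-cystic regions, with a median of -0.73. Over all genes 19.7 percent were higher and 19.5 percent lower, with a median of 0.04. With total counts 2 of the subunit genes were higher and 4 lower, with a median of -0.13. On that scale 41.2 percent of all genes were higher and 9.12 percent lower, with a median of 0.65. Atp6v1a, the catalytic subunit, had 114 to 217 CPM (median 165) in F4/80-high, 265 to 402 CPM (median 325) in F4/80-low and 394 to 548 CPM (median 466) in non-cystic libraries, in order and without overlap between F4/80-high and the others. Its log2 fold change was -1.53 ± 0.25 (adjusted p = 0.00131). Atp6v1c2, a subunit of few epithelia, was lower in both F4/80-high (-2.84 ± 0.44, adjusted p = 0.00151) and F4/80-low regions (-2.36 ± 0.44, adjusted p = 0.039) against the same non-cystic libraries. The 7 collecting duct and intercalated cell markers that are not V-ATPase subunits summed to 5.61 to 194 CPM in F4/80-high, 8.37 to 269 CPM in F4/80-low libraries and 85.5 to 405 CPM in non-cystic libraries, with 3 of 7 called lower in F4/80-high regions and 0 in F4/80-low ones. An eighth marker on that list, Atp6v1g3, is itself a V-ATPase subunit and was left out of the sum after its values were seen. The part of these cells in the result was not tested.

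Of 9 genes of mannose 6-phosphate sorting 1 was higher and 3 were lower in F4/80-high than in non-cystic regions. The receptor gene Igf2r (-1.18 ± 0.14, adjusted p = 0.000353), the phosphotransferase subunit gene Gnptg (-0.98 ± 0.22, adjusted p = 0.00682) and the adaptor gene Gga2 (-0.97 ± 0.22, adjusted p = 0.00628) were lower, and Nagpa, which uncovers the mannose 6-phosphate tag, was higher (0.79 ± 0.25, adjusted p = 0.0333). With total counts 1 gene of this list was higher and 1 lower. Of the 10 protease inhibitor genes listed 4 were tested and all 4 were higher. Serpina3n (5.04 ± 1.14, adjusted p = 0.0131) and Serpinb6a (1.96 ± 0.25, adjusted p = 0.000433) encode serpins, and Cst3 (1.03 ± 0.24, adjusted p = 0.00764) and Cstb (1.02 ± 0.24, adjusted p = 0.00861) encode cystatins, which block cysteine cathepsins. The 6 that were not tested had too few counts, so the 4 are no measure of the whole list. In F4/80-low against non-cystic regions all these pathway lists together held 1 higher gene, Litaf (1.46 ± 0.23, adjusted p = 0.0176), and 1 lower gene, Atp6v1c2. Of all genes 1.51 percent were called higher and 0.0249 percent lower there.

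**Figure D4:**
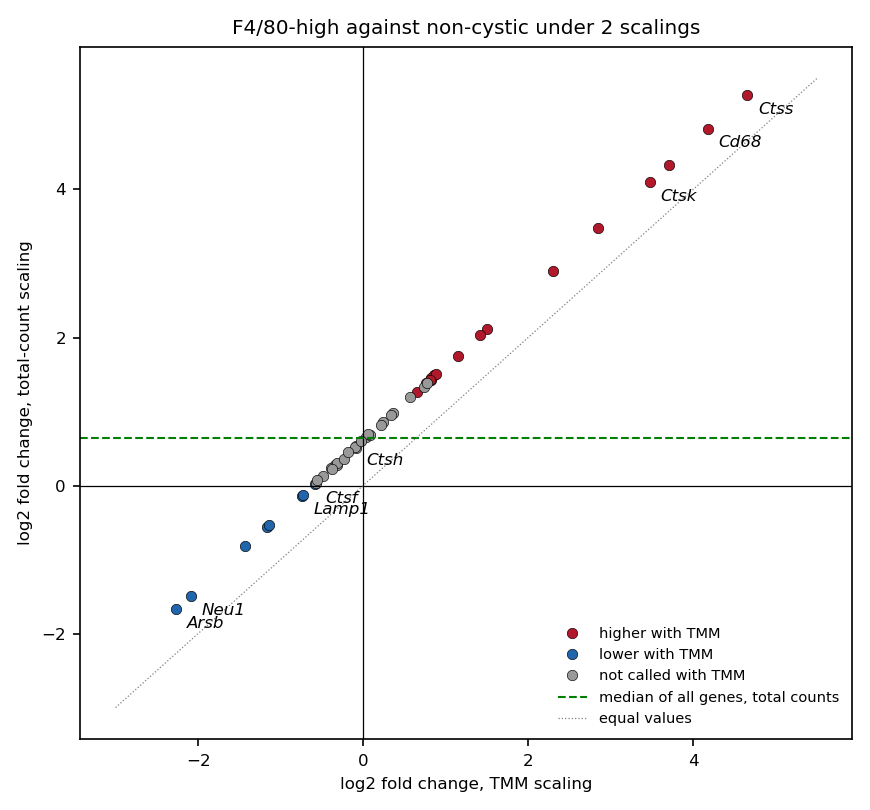
Log2 fold change of the 48 members in F4/80-high against non-cystic regions with trimmed mean of M values on the horizontal axis and with total counts on the vertical axis; the dashed line is the median of all genes with total counts, the dotted line marks equal values and colour gives the call with trimmed mean scaling. The points lie above the line of equal values, the median of all genes having moved by 0.61, which leaves Ctsf at 0.02 and moves the number of members called higher to 27.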

How the data were processed

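Libraries were made, per the labels, with a NEBNext Single Cell/Low Input kit from TRI reagent RNA of dissected frozen tissue. The authors deposited raw counts of reads per gene, whole numbers without normalization. Per the submitters' processing notes, GRCm38 (mm10), FastQC 0.11.9, fastp 0.20.1 and HTSeq 0.11.0 were used, with roles not stated; for the aligner, annotation and strandedness of counting, the value is not given in the sources used here. Members and gene lists were chosen with earlier results of these data known.

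The 2 libraries of a kidney and region differed beyond sampling noise (chi-square per degree of freedom 13.7 to 99.2). They were summed, giving 9 sums over 3 kidneys. A total of 16034 genes passed edgeR's expression filter and held 99.8 percent of counts; 4845 of 32285 genes had no count. edgeR 4.0.16 (R 4.3.3) with trimmed mean of M values scaling fitted region and kidney, and robust quasi-likelihood F tests with 4 residual degrees of freedom were adjusted by Benjamini-Hochberg over all genes at 0.05. The kidney block follows from same-numbered libraries coming from the same kidney. An SE is the log2 fold change over the root of F. CPM came from the same scaling, and error over kidneys is SD. All members could be named; per-library values went to the called members with the smallest p, up to 8 a direction, to the ends of each role list and to Tfeb, Tfe3 and Mitf, and other lists gave up to 4 genes by smallest p. Levels over gene length used GENCODE exons. The procedure was tested on simulated counts. Alternatives were other scalings and filters, DESeq2 1.42.0, limma 3.58.1 on all 18 libraries, no kidney block, and leaving out libraries or kidneys. Figures used matplotlib 3.10.9 under Python 3.11.15. Counting error is small at these depths except for genes near 1 CPM.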

Additional observations from a re-analysis of the deposited data

Results flagged for a closer look

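In 10 of 144 groups of 6 libraries, 1 library stood apart from the other 5, its gap to the nearest exceeding Dixon's 95% critical share of the group's range. Chance marks about 1 in 20 such groups. Ctsc in F4/80-low regions had 131.6 CPM in kidney 2, replicate 2, with the nearest library at 53.47 CPM. The same region type held Glb1 at 113.6 CPM in kidney 3, replicate 2 (nearest 91.64 CPM), and Gaa at 15.25 CPM in that library, below the nearest at 26.86 CPM. In F4/80-low kidney 1, replicate 2, Ids had 20.79 CPM (nearest 14.95 CPM) and Tpp1 283.4 CPM (nearest 218.7 CPM). Mitf in F4/80-high regions had 19.75 CPM in kidney 3, replicate 2 (nearest 13.43 CPM). Among non-cystic libraries, kidney 1 replicate 2 had 399.3 CPM of Ctsh (nearest 273.9 CPM) and 751.9 CPM of Fuca1 (nearest 569.3 CPM). Sgsh had 11.37 CPM in non-cystic kidney 1, replicate 1 (nearest 5.902 CPM), and Manba 29.39 CPM in non-cystic kidney 3, replicate 1 (nearest 19.29 CPM). The cause was not tested for any of them.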

How the results depend on the processing

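Under 32 alternatives, Ctss, Ctsc, Ctsk, Cd68, Laptm5, Hexa, Scarb2, Asah1, Arsb, Neu1, Fuca1 and Lipa kept their calls in F4/80-high against non-cystic regions. With total counts, 27 members were higher and 5 lower there, and 19 higher and 4 lower in F4/80-high against F4/80-low regions. That scaling also turned Ctsf to 0.0203 and Ctsh, not called before, to 0.53 (adjusted p = 0.0285) in F4/80-high against non-cystic regions. Ctsa, Ctsl, Ctsz and Lgmn were newly called higher there as well. In F4/80-low against non-cystic regions, 1 member was higher with upper quartile factors, with total counts, with the stricter filter and with the libraries labelled 1 alone, 4 with the DESeq2 Wald test and with the 2 region types alone, and 0 with the libraries labelled 2 alone. The shares of all genes called higher in these settings, in the same order, were 1.37, 1.33, 1.81, 0.225, 3.75, 2.14 and 0.309 percent. In F4/80-high against F4/80-low regions 15 were higher with all 18 libraries and kidney as a random effect, when 19.3 percent of all genes were higher. There, 4 were lower with those region types alone and with the libraries labelled 1 alone, when 8.23 and 6.9 percent of all genes were lower. Leaving out a library or kidney gave 8 to 18 higher and 5 to 10 lower members in F4/80-high against non-cystic, 0 to 4 higher and 0 lower in F4/80-low against non-cystic, and 4 to 11 higher and 2 to 8 lower in F4/80-high against F4/80-low regions. The calls over all genes moved too. Their shares ran from 10.6 to 20.8 percent higher and 9.93 to 20.4 percent lower in the first comparison. In the second they were 0.135 to 3.39 percent higher and 0 to 0.179 percent lower. The third had 2.86 to 11.4 percent higher and 3.19 to 15.2 percent lower. Without kidney 1, F4/80-high against non-cystic regions had 8 members higher and 5 lower, against 10.6 and 9.93 percent of all genes. Without the kidney block the counts of members were 16 and 8, 3 and 0, and 9 and 6 in the same order of comparisons. The shares of all genes were then 20.1 and 19.6, 1.61 and 0.0249, and 11 and 14.2 percent. Among the calls only Lipa in F4/80-high against F4/80-low was lost (adjusted p = 0.0711). The cause of these changes was not tested, beyond fewer samples being left. With 3 kidneys and 4 residual degrees of freedom, small differences are imprecise, and Ctse, near 1 CPM, is limited by depth.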
